A study of Mus musculus with 36 samples.

Results

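The expression of 10 genes that guard the germ line genome was followed in differentiating Xmas mouse embryonic stem cells (mESCs). The genes are Piwil2, Mov10l1, Asz1, Tdrd12, Mael, Tdrd1, Fkbp6, Ddx4, Dazl and Tex19.1, and all 10 have a row among the 25965 genes of the deposited table. They were chosen by name, with their measured course over days 0 to 8 and their difference between the cultures labelled double and single already known, so that both are given as a description without a test.

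Xmas mESCs are female C57/Bl6 lines in which the X-linked gene Hprt carries GFP on an X chromosome and mCherry on its homologue. Female mESCs can lose an X chromosome in culture, and whether each library here still held both alleles was not tested. Cells grown in 2i and LIF, a medium that keeps mESCs naive, were weaned into serum medium in steps, and the labels name no further agent. RNA was collected on each of 9 days from 4 cultures, named X14 double, X14 single, X18 double and X18 single, which gives 36 libraries in all. X14 and X18 are taken as lines. What double and single stand for is not told by the sample titles, so both serve only as names here. The same 4 names recur on every day and each is called a culture below. Nothing says that libraries of a day came from separate animals, so p-values measure the spread between these libraries, which may be technical. Libraries of the same culture on several days are serial samples, and the main fits count them as separate.

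In germ cells, PIWI proteins carry short piRNAs that match transposon transcripts. They cut these transcripts in the cytoplasm and direct DNA methylation to transposons in the nucleus, and the work takes place in nuage, a granule built by Tudor proteins, helicases and mitochondrial scaffolds. In most somatic cells the promoters of many of these genes are methylated and silent, whereas mESCs in 2i have little DNA methylation and transcribe several of them. The values are whole reads recovered from the deposited table and given as reads per 1000000 reads of the library (RPM), and as reads per kilobase of exon on top of that (RPKM) where genes are compared with each other.

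Depth was modest, with 612740 to 2445826 reads in genes and a median of 1297944, so that 3 reads stand for 1.04 to 3.90 RPM. The X14 libraries of day 0 stood apart. The balance of X-linked to autosomal expression, as a log2 difference of double minus single, was -1.29 between them, against 1.17 in X18 on day 0 and 0.19 to 1.14 in both lines on days 1 to 8. These libraries go against their labels, and they are named below as the libraries labelled X14 double and X14 single on day 0. Bulk RNA cannot separate fewer expressing cells from less RNA per cell in any of the values that follow.

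The sequence before the start of transcription was looked at first, since it was not used to choose the genes. RefSeq windows of 250 bases before the start (GRCm38.p6, the mm10 assembly) were matched by symbol for 9 of the 10 genes. No window was at hand for Piwil2. A CpG site is a C followed by a G, the place where DNA methylation is set, and the 9 windows held 5 to 31 of them with a median of 17. Over all 32851 windows the median was 6 and the quartiles were 2 and 16. Windows are shown for Ddx4 and Dazl, which had the most sites, for Asz1, whose reads on days 1 to 4 came almost all from libraries labelled double, and for Tdrd12, which had the fewest. All 4 genes lie on the minus strand and are written in the direction of transcription, with CpG sites in capitals. The window of Ddx4 lies at chr13:112652311-112652560, that of Dazl at chr17:50293621-50293870, that of Asz1 at chr6:18109062-18109311 and that of Tdrd12 at chr7:35537745-35537994.
Ddx4: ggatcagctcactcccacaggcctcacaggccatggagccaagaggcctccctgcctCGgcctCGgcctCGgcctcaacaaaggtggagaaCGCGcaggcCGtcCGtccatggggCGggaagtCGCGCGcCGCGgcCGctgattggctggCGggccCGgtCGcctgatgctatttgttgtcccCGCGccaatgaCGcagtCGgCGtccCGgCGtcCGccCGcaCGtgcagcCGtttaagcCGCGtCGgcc
Dazl: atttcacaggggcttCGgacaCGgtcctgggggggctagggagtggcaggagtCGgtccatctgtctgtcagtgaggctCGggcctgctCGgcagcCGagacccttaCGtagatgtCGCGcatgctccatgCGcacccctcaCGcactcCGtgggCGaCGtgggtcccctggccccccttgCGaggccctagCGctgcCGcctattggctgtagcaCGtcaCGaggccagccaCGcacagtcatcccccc
Asz1: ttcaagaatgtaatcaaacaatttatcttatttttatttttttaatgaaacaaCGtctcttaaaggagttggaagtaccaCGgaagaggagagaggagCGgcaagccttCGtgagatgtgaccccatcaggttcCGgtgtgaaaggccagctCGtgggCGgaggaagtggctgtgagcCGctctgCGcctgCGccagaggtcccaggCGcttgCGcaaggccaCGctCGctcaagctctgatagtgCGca
Tdrd12: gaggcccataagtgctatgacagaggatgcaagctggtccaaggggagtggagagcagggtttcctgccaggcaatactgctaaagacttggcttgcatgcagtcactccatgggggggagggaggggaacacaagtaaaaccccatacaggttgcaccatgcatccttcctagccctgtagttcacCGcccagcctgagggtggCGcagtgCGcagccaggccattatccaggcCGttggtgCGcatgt

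Ddx4 had 31 sites, more than 94.8% of all windows, and Dazl had 20, more than 82.1%. Tdrd12 had 5, so 44.4% of all windows had fewer, and its ratio of observed to chance CpG was 0.24 against 1.0 in Ddx4 and 0.90 in Asz1. In the other windows 19 sites were found for Mov10l1, 18 for Mael, 17 for Fkbp6, 15 for Tex19.1 and 11 for Tdrd1. Tdrd12, with the CpG-poorest window, also had the highest mean level per length on day 0, in a range that overlapped that of Tex19.1. The letters CACGTG, which read the same on both strands, stood in 5 of the 9 windows (Mael, Tdrd1, Ddx4, Mov10l1 and Fkbp6) and in 6.02% of all windows. TCCCGC or its complement GCGGGA stood in 3 of the 9 (Mael, Ddx4 and Tex19.1) and in 16.9% of all windows. These are matches of letters, not measured binding, and methylation was not measured here. Both strings hold a CpG site, and the 9 windows had a median of 17 such sites where all windows had 6. Their share among windows of like CpG content was not taken.

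**Figure D1:**
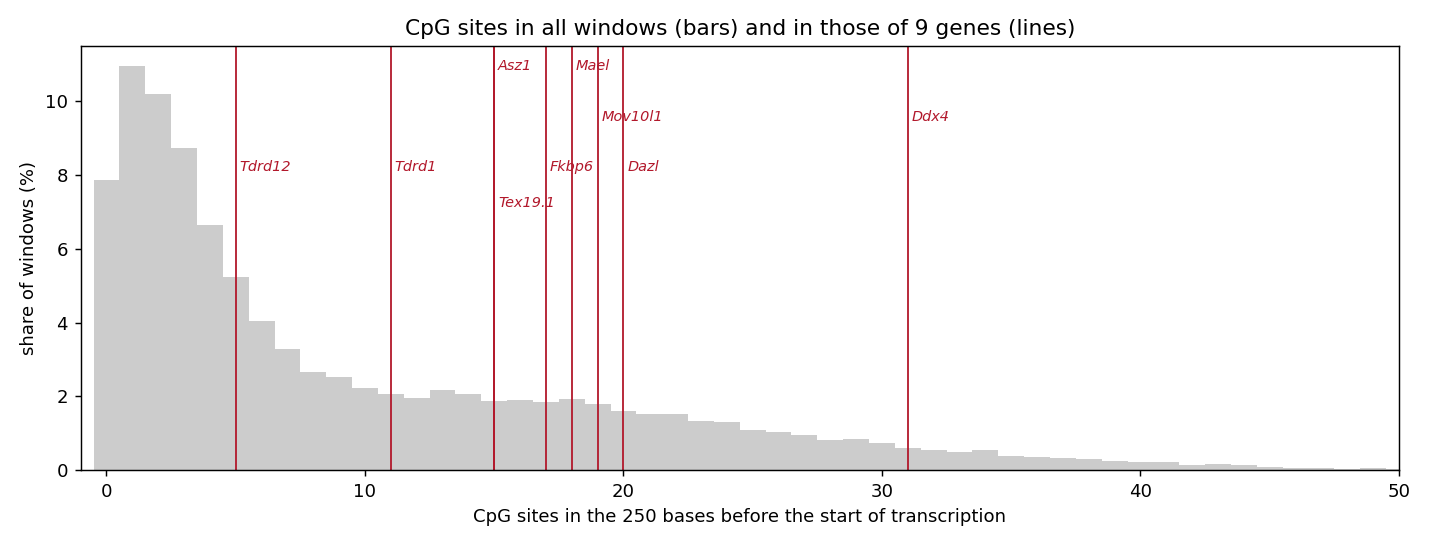
CpG sites in the 250 bases before the start of transcription. The x axis gives the number of sites, the grey bars give the share of all 32851 windows in percent, and each red line marks the window of a named gene. The lines run from 5 sites in Tdrd12 to 31 in Ddx4, and 8 of the 9 lie above the median of 6.

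The first question was how strongly each gene was expressed in naive mESCs. Per length, the order of mean levels on day 0 (RPKM, SD over n = 4 libraries) was Tdrd12 with 137 ± 49.6, Tex19.1 with 117 ± 40.6, Dazl with 68.1 ± 46.2 and Fkbp6 with 33.6 ± 17.6. A lower group followed with Ddx4 at 12.1 ± 2.85, Mael at 7.40 ± 3.91, Piwil2 at 3.63 ± 2.63, Asz1 at 2.47 ± 2.72, Mov10l1 at 0.868 ± 0.723 and Tdrd1 at 0.082 ± 0.064. The ranges of Fkbp6 and Ddx4 did not overlap, and every other pair of neighbours in this order did overlap. Thus 4 genes stood apart at the top, and the PIWI gene itself was among the lower ones.

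Counts of calls serve as background for the courses. Calls required an adjusted p under 0.05 in limma over the 14612 genes tested, together with a log2 fold change of 1 or more either way. From day 0 to day 4, 12.2% of genes were called higher and 6.4% lower, and from day 0 to day 8, 23.9% were called higher and 11.1% lower. Among the 10 genes here, all of which passed the filter on low values, 1 was called higher and 1 lower on day 4, and 1 higher and 6 lower on day 8. With the replicate block 2 were called higher and 2 lower on day 4, Piwil2 and Tex19.1 being added, and 1 higher and 7 lower on day 8, with Asz1 added. Their median log2 fold change was -0.55 on day 4 and -1.94 on day 8, where the median of all genes was 0.12 and 0.23. With scaling to the 75th percentile the median of all genes on day 8 moved to -0.05, the called genes were 53.41% higher in place of 68%, and 0 of the 10 genes were called higher and 7 lower. Without the X14 libraries of day 0, 4355 genes in place of 2720 were called on day 4 and 6180 in place of 5114 on day 8, and 0 of the 10 genes were called higher and 4 lower (Tdrd12, Dazl, Fkbp6 and Tex19.1).

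Piwil2, also known as Mili, encodes the PIWI protein that cuts transposon RNA, and it lies at chr14:70372480-70429094 on the minus strand. On day 0 it stood at 12.96 and 36.6 RPM in the libraries labelled X14 double and X14 single, and at 7.19 and 14.5 RPM in X18 double and X18 single. On day 3, its highest day, the same cultures had 74.7, 46.7, 62.8 and 49.8 RPM. Day 8 then gave 21.3, 5.83, 14.8 and 1.19 RPM. Piwil2 was thus a gene of the middle days, with a mean of 58.5 ± 12.9 RPM (SD, n = 4) on day 3 against 17.8 ± 12.9 on day 0 and 10.8 ± 9.00 on day 8. Every library of day 3 was above every library of day 0, and the fitted log2 fold change from day 0 to day 8 was -1.13 with an SE of 0.63, and -0.58 without the X14 libraries of day 0.

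Mov10l1 encodes the helicase that feeds piRNA precursors into processing (chr15:88982909-89055152, plus strand). It stayed at or below 7.99 RPM in every library and had 208 reads in all 36. The cultures X14 double, X14 single, X18 double and X18 single had 5.20, 4.94, 6.25 and 7.99 RPM on day 5, its highest day, and 0.52, 0.97, 0 and 0 RPM on day 8. Only 3 reads were left on day 8, and the groups of days 5 and 8 did not overlap. Its fitted log2 fold change from day 0 to day 8 was -1.92 with an SE of 0.58, and -1.14 without the X14 libraries of day 0.

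Asz1 encodes a scaffold of nuage at the mitochondrial surface (chr6:18050964-18109061, minus strand). It was measured at 0.93 and 11.6 RPM in the day 0 libraries labelled X14 double and X14 single, and at 15.4 and 0 RPM in X18 double and X18 single. On day 1 both cultures labelled double had reads, with 15.5 RPM in X14 and 13.97 RPM in X18, and both labelled single had none. The same held on day 2 with 7.15 and 5.75 RPM, on day 3 with 9.33 and 6.34 RPM against 0 and 0.49 RPM, and on day 4 with 2.69 and 3.94 RPM against none. From day 5 on, 2 reads were found in 16 libraries. Pooled over days 1 to 4, 97 reads in 8 libraries labelled double stood against 1 read in 8 labelled single, or 7.69 against 0.079 RPM, a ratio of 97.1 with a 95% exact binomial interval of 17.0 to 3873.2 that covers counting error only. With no read on day 8, the pooled level there was at least 12.9-fold lower than the 6.50 RPM of day 0, taking 3 reads over the 4 libraries (0.502 RPM) as the floor. On day 0 the order in X14 was opposite to that of X18 and of every later day with reads in X14.

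Tdrd12 encodes a Tudor protein with a helicase domain that works in the later, secondary round of piRNA making (chr7:35493612-35537745, minus strand). On day 0 it was about as abundant as Tex19.1 and Dazl, with 112 and 242 RPM in the libraries labelled X14 double and X14 single and 304 and 233 RPM in X18 double and X18 single. On day 4 these cultures still had 155, 92.5, 142 and 129 RPM. On day 5 the pairs parted, with 122 and 108 RPM in the cultures labelled double and 46.1 and 36.8 RPM in those labelled single. Day 6 gave 18.7, 8.64, 29.0 and 11.2 RPM, and day 8 gave 2.60, 0.97, 8.70 and 3.57 RPM. Its day 8 mean of 3.96 ± 3.34 RPM was 1.8% of the day 0 mean of 223 ± 80.4 RPM (SD, n = 4), with no overlap. The fitted log2 fold change was -6.14 with an SE of 0.53.

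Mael encodes Maelstrom, a protein needed for transposon silencing in the male germ line (chr1:166201385-166238744, minus strand). Its levels on day 0 were 6.01 and 19.9 RPM in the libraries labelled X14 double and X14 single and 11.3 and 8.54 RPM in X18 double and X18 single. On day 5, in the same order, it had 96.2, 32.1, 63.1 and 41.0 RPM, each above every day 0 library. On day 6 the cultures labelled single dropped to 3.70 and 4.96 RPM while those labelled double had 28.3 and 35.9 RPM. Day 8 ended at 7.79, 2.43, 11.3 and 2.38 RPM. The mean over the 4 cultures was 58.1 ± 28.5 RPM on day 5 and 18.2 ± 16.4 RPM on day 6 (SD, n = 4), so the highest day was followed at once by a much lower one. Day 5 stood apart for other genes too. On days 4, 5 and 6 Hsp90aa1 averaged 1264, 761 and 989 RPM, and Mga 169, 253 and 197 RPM. The part of such shifts in the day 5 levels of Mael, Ddx4 and Mov10l1 was not tested. The fitted log2 fold change from day 0 to day 8 was -1.13 with an SE of 0.71.

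Tdrd1 encodes the Tudor protein that binds methylated arginines of PIWI proteins (chr19:56826209-56870012, plus strand), and it had the opposite course. In the 16 libraries of days 0 to 3 it had 9 reads in all and no more than 0.99 RPM. On day 4 it stood at 6.47 and 7.29 RPM in the cultures labelled single, and at 0 and 0.56 RPM in those labelled double. By day 5 both kinds of culture had it, with 2.60 and 3.12 RPM in X14 and X18 double and 3.29 and 8.69 RPM in X14 and X18 single. Its highest mean was 5.56 ± 3.28 RPM on day 7 (SD, n = 4), and day 8 gave 6.23, 2.92, 0 and 1.19 RPM. The fitted log2 fold change from day 0 to day 8 was 1.66 with an SE of 0.66, and 1.19 without the X14 libraries of day 0. On day 4 the X14 and X18 cultures labelled single thus had 10 and 13 reads, and those labelled double 0 and 1. On day 5 X14 double and X18 double had 2 and 5 reads, where 3 reads stand for 3.90 and 1.87 RPM. The day on which the gene appeared in double is therefore not well resolved, on a total of 151 reads.

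Fkbp6 encodes an immunophilin that works with Hsp90 in loading PIWI proteins (chr5:135291704-135349991, minus strand). On day 1 it was measured at 64.1, 36.7, 64.8 and 44.2 RPM in X14 double, X14 single, X18 double and X18 single. On day 5 the cultures labelled double had 55.9 and 52.5 RPM and those labelled single 11.5 and 14.3 RPM. On day 8 they had 9.86 and 13.9 RPM against 0.49 and 2.38 RPM. On day 5 the 2 kinds of culture thus lay further apart than on day 1, and on neither day did they overlap. Its fitted log2 fold change from day 0 to day 8 was -3.58 with an SE of 0.86.

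Ddx4, the mouse vasa gene, encodes a helicase that is a standard marker of germ cells (chr13:112598333-112652310, minus strand). It ranged from 22.6 to 40.1 RPM on day 0, then 41.2 to 52.0 RPM on day 5, then 11.9 to 22.3 RPM at the end. Every library had reads of it. On day 8 X14 double, X14 single, X18 double and X18 single had 22.3, 13.6, 21.8 and 11.9 RPM. The day 8 libraries lay below those of day 0, and the fitted log2 fold change was -1.0 with an SE of 0.24. Ddx4 was thus still read in all 4 cultures on day 8.

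Dazl encodes an RNA-binding protein that governs translation in germ cells and is not itself part of piRNA making (chr17:50279394-50293599, minus strand). On day 0 it was measured at 103 and 366 RPM in the libraries labelled X14 double and X14 single, and at 256 and 76.0 RPM in X18 double and X18 single. Day 1 gave 387, 112, 307 and 69.0 RPM, and day 4 gave 36.3, 9.70, 33.2 and 13.5 RPM. On day 8 X14 double had 1.56 RPM and X18 double 4.35 RPM, and no read was left in the cultures labelled single, where a count of 0 allows 3 reads. Dazl was the first of the abundant genes to go, below 50% of its day 1 mean by day 3 and at 0.7% of it on day 8. Its fitted log2 fold change was -3.05 with an SE of 0.72 on day 4 and -6.95 with an SE of 0.72 on day 8.

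Tex19.1 encodes a mammal-specific protein that curbs retrotransposons and is known from pluripotent cells and placenta as well as germ cells (chr11:121146143-121148319, plus strand). On day 0 it had 121 and 271 RPM in the libraries labelled X14 double and X14 single, and 286 and 195 RPM in X18 double and X18 single. Day 7 gave 49.0, 7.96, 39.4 and 13.6 RPM. On day 8 all 4 cultures were higher again, with 120, 35.5, 86.2 and 21.4 RPM. Tex19.1 was alone among the 10 genes in being higher on day 8 than on day 7 in 4 of 4 cultures, with means of 27.5 ± 19.8 and 65.7 ± 45.6 RPM (SD, n = 4), and the groups overlapped. Reads shared with its neighbour and paralog Tex19.2 were not tested, since the handling of reads with several matches is not given in the sources used here. Tex19.2 had 2 reads on day 7 and 1 read on day 8, where Tex19.1 had 421 reads on day 8.

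**Figure D2:**
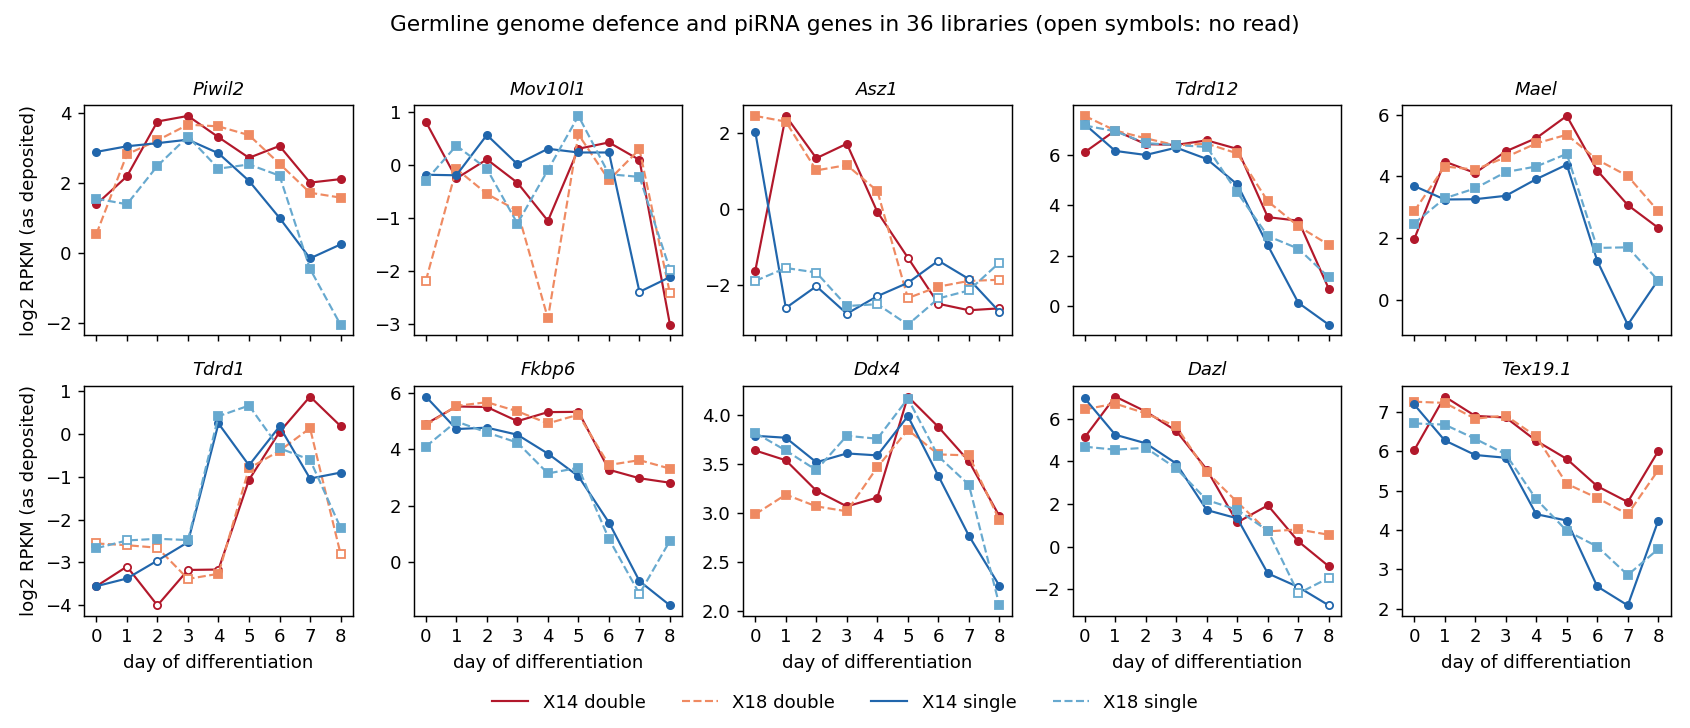
Levels of the 10 genes in 36 libraries. Each panel shows 1 gene, with the day of differentiation on the x axis and the deposited log2 RPKM on the y axis, red lines for cultures labelled double, blue lines for cultures labelled single, solid lines for X14 and dashed lines for X18. Open symbols mark libraries without a read. Dazl and Tdrd12 end far below their start, Piwil2 and Mael peak on days 3 and 5, and Tdrd1 appears from day 4.

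The 10 genes did not move as a single block. The log2 values of each gene were first turned into z-scores (mean taken off, divided by the SD), so that sparse and abundant genes weigh alike. Over the 36 libraries the Pearson r of a gene with the mean z-score of the other 9 was 0.88 for Fkbp6, 0.87 for Tdrd12, 0.80 for Mael, 0.76 for Dazl and 0.74 for Piwil2. It was 0.65 for Tex19.1, 0.53 for Ddx4, 0.40 for Mov10l1, 0.31 for Asz1 and -0.47 for Tdrd1. The points share their libraries and days, and Asz1, Mov10l1 and Tdrd1 are sparse. Over the 45 pairs of genes r ran from -0.73 to 0.89 with a median of 0.50.

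The second comparison was between the cultures labelled double and single within a day and line, 16 pairs on days 1 to 8. Each label was carried only by a culture of X14 and a culture of X18, sampled serially, and the fit counts their libraries as separate. The p-values between the labels thus do not measure the spread between independent cultures. Over all genes tested, 2.93% were called higher in double and 1.61% lower. Of the 10 genes 6 were called higher and 0 lower, and this contrast was among the values that chose them, so nothing is read from the count. Their median log2 difference was 1.29 where that of all genes was -0.04. What follows gives the size and timing of the differences.

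Mael, Fkbp6 and Tex19.1 were higher in double in 16 of 16 pairs, and on 8 of 8 days both cultures labelled double lay above both labelled single. The median gap was wider late than early. The median log2 difference of the 8 pairs of days 1 to 4 and of the 8 pairs of days 5 to 8 was 0.95 and 2.28 for Mael, 0.94 and 2.58 for Fkbp6, and 1.0 and 1.66 for Tex19.1. On days 6 to 8, however, libraries labelled single had only 0 to 4 reads of Fkbp6 and 1 to 8 of Mael. On day 5, with more reads, Fkbp6 differed by 2.28 in X14 and 1.88 in X18, and Mael by 1.58 and 0.62. Fitted over days 1 to 8, Fkbp6 differed by 1.99 (SE 0.26), Mael by 1.61 (SE 0.21) and Tex19.1 by 1.44 (SE 0.13) on the log2 scale.

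Piwil2 was higher in double in 15 of 16 pairs, with X14 on day 1 as the exception, and its median gap went from 0.65 on days 1 to 4 to 1.96 on days 5 to 8. Tdrd12 was likewise higher in 15 of 16 pairs, but its gap of 0.16 on days 1 to 4 was small beside 1.40 on days 5 to 8. Dazl had median gaps of 1.70 and 1.92 and was higher in 14 of 16 pairs. Its gaps in X14 and X18 were -0.19 and 0.36 on day 5, and 3.2 and -0.04 on day 6. On days 7 and 8 no library labelled single had a read of Dazl, and those labelled double had 3 to 7 reads. The late gaps of these days thus depend on the value that stands in for 0. The fitted differences were 1.15 (SE 0.23) for Piwil2, 0.92 (SE 0.19) for Tdrd12 and 1.63 (SE 0.21) for Dazl. Of these 3 genes only Dazl had a median gap of more than 1 on the log2 scale both early and late. Its late median was set by pairs without a read in single.

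Asz1 was the extreme case, with a median log2 gap of 3.53 on days 1 to 4, when it was higher in double in 8 of 8 pairs, and of 0.18 on days 5 to 8, when almost no reads remained. The fitted difference was 1.74 (SE 0.40) over days 1 to 8 and -0.05 over days 5 to 8 alone. A value of 0.9 read stands in for 0 in these log2 differences, so that they understate the contrast in reads given above.

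The other 3 genes were not higher in double throughout. Ddx4 was higher in 0 of 8 pairs on days 1 to 4 and in 7 of 8 on days 5 to 8, with median gaps of -0.39 and 0.40, which left a fitted difference of -0.02 (SE 0.11). Mov10l1 was higher in double in 5 of 16 pairs and differed by -0.26 (SE 0.27). Tdrd1 was lower in double in 11 of 16 pairs, among them day 4 by up to 3.69 on the log2 scale, and differed by -0.54 (SE 0.34).

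On day 0, which did not enter this comparison, the lines went opposite ways for most of the genes. Of the 10 genes 8 were lower and 1 higher in the library labelled X14 double than in that labelled X14 single, whereas 6 were higher and 4 lower in X18 double than in X18 single. Dazl shows it with a log2 difference of -1.83 in X14 and 1.75 in X18, and Asz1 with -3.64 and 4.33. The sign of the gap in X14 on day 0 thus went with the X-linked balance of these libraries and against their labels.

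**Figure D3:**
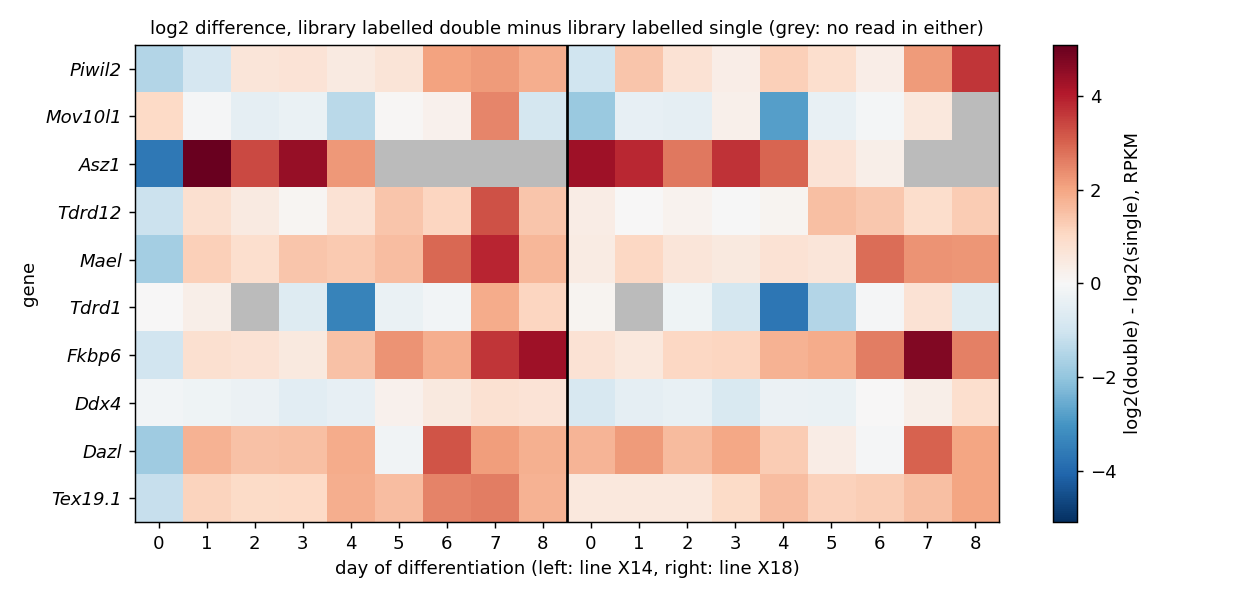
Log2 difference in RPKM between the library labelled double and that labelled single, for each gene (rows) on each day (columns), with X14 left and X18 right of the black line. Red means higher in double, blue lower, and grey that neither library had a read. Mael, Fkbp6 and Tex19.1 are red on days 1 to 8 in both lines, and most of the X14 column of day 0 is blue.

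The lines were compared because this contrast was not used to choose the genes. Over days 1 to 8, with day and label in the fit, 2 of 14612 genes were called between X18 and X14 in either direction, 0.0137% of those tested. None of the 10 genes was called, and the log2 difference of X18 minus X14 ran from -0.26 for Piwil2 (95% interval -0.72 to 0.21) to 0.50 for Tdrd12 (0.11 to 0.89). The adjusted p of Tdrd12 in limma was 0.442 and its unadjusted p was 0.0142. The interval of Ddx4, -0.23 to 0.23, was the tightest, while that of Asz1, -0.77 to 0.86, was the widest. Line took up at most 1.3% of the variance of any of the 10 genes over the 32 libraries, where day took up 30.4% in Asz1 to 89.4% in Tdrd12 and label up to 29.6% in Asz1. Whether the double and single gap itself differed between the lines was fitted as an interaction. The 10 genes were chosen with these gaps known, so their values are a description only. They ran from -0.50 for Mael and Tdrd1 to 0.38 for Piwil2. No gene of the 14612 was called in the interaction by limma, and 919 had an unadjusted p under 0.05. Each line and label is 1 culture sampled serially, so this fit cannot tell lines from cultures.

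A list of 23 other genes of the piRNA pathway, written with earlier results of these data known, gave the wider view. All 23 have a row, with Henmt1 under its older symbol 4921515J06Rik and Btbd18 under Gm13718, and 19 passed the filter on low values. Between day 0 and day 8 limma called 7 of the 19 lower and 3 higher, beside 11.1% and 23.9% of all genes. The median of the 19 was -0.91 where all genes had 0.23. Morc1, an ATPase of germ line transposon silencing, fell by 6.34 on the log2 scale (SE 0.50, adjusted p 3.3e-12), from 153 ± 24.3 to 2.27 ± 1.46 RPM (SD, n = 4). Stk31, a Tudor-domain kinase relative, fell by 4.52 (adjusted p 6.2e-05), and Rnf17, also a Tudor protein, fell by 2.04 (adjusted p 5.4e-11). Pnldc1, the nuclease that trims piRNAs, fell by 2.75 (adjusted p 5.5e-06), and the mitochondrial enzyme Pld6 fell by 2.22 (adjusted p 2.5e-05). Gtsf1 fell by 2.51 (adjusted p 0.00942), a call that ended when X14 single (-1.81) or X18 double (-2.28) was left out or when thinned (-1.46), the PIWI gene Piwil4 fell by 1.37 (adjusted p 0.0124), a call that ended in 4 alternatives, among them without the X14 libraries of day 0 (-1.26, adjusted p 0.0584).

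The 3 of 19 called higher, where 23.9% of all genes were, encode Tudor proteins. Tdrd7 rose by 4.39 (SE 0.72, adjusted p 6.6e-06), with day 0 at 1.91 ± 2.13 RPM and day 8 at 35.3 ± 18.6 RPM (SD, n = 4), Tdrd5 rose by 3.13 (adjusted p 0.00176) and Tdrkh rose by 1.59 (adjusted p 0.0489), a call that ended in 9 alternatives (0.56 to 1.76), among them the 75th percentile scaling (1.31, adjusted p 0.0996) and the replicate block (adjusted p 0.0526). With that scaling 11 of the 19 were called lower and 2 higher. Tdrd9, also a Tudor gene, had 0.12 (adjusted p 0.842), and Tdrd6 did not pass the filter. Cofactors that every cell uses were lower too but stayed under the minimum fold, with -0.91 for the arginine methyltransferase Prmt5 and -0.34 for its partner Wdr77. Prmt5 averaged 276 RPM on day 0 and 149 RPM on day 8, and Hsp90aa1, also not called, 1331 and 702 RPM. With no minimum fold 9 of the 19 were called lower and 3 higher. On day 4 limma called 0 of the 19, and 3 had an unadjusted p under 0.05. Morc1 was called lower there with the replicate block (-1.15, adjusted p 0.0407), with log2(RPM + 1) and with voom.

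Between the labels limma called 4 of these 19 higher in double and 1 lower, beside 2.93% and 1.61% of all genes. Stk31 differed by 2.17 (SE 0.20, adjusted p 3.6e-09), the mitochondrial nuage gene Gpat2 by 1.74 (adjusted p 6.7e-09), Tdrd7 by 1.31 (adjusted p 0.00017) and Gtsf1 by 1.18 (adjusted p 0.00798). Tdrd5 was lower by 1.61 on the log2 scale (a difference of -1.61, adjusted p 4.9e-05). The list's median was 0.25, and Piwil1 and Piwil4, the remaining PIWI genes, had 0.47 and 0.26 and were not called (adjusted p 0.289 and 0.427). Tdrd7, which rose over the days, was higher in double, and Tdrd5, which also rose, was lower. The difference of Gtsf1 lost its call in 10 alternatives (0.51 to 1.25), among them each line alone and any replicate left out, and that of Tdrd7 in 2 (0.79 when thinned and 0.90 with day 0 included).

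Germline genes outside the piRNA pathway whose promoters are known to be held by DNA methylation were taken as a second list of 10, all tested. This list too was written with earlier results of these data known. On day 8 limma called 4 lower and 0 higher, beside 11.1% and 23.9% of all genes, with a median of -1.38. It called 2 lower without the X14 libraries of day 0 and 5 with the replicate block, which added Slc25a31. Hormad1, a protein of the meiotic chromosome axis, fell by 6.01 (SE 0.76, adjusted p 8.3e-08), from 157 ± 94.8 to 2.49 ± 2.94 RPM (SD, n = 4), and the cohesin gene Smc1b fell by 3.11 (adjusted p 0.00614), a call that ended without those libraries (-2.22, adjusted p 0.101). In double 6 were called higher and 0 lower, beside 2.93% and 1.61% of all genes, with a median of 1.41. The synaptonemal complex gene Sycp1 differed by 2.53 (SE 0.18, adjusted p 1.8e-11), Smc1b by 2.10 (adjusted p 1.2e-06), Slc25a31 by 1.84 (adjusted p 1.2e-09) and Hormad1 by 1.78 (adjusted p 1.8e-07). The other two, Taf7l at 2.84 (adjusted p 4.1e-10) and Tex11 at 1.03 (adjusted p 0.00848), are X-linked, and the call of Tex11 ended in 8 alternatives (0.54 to 0.94), among them X18 alone and X14 double or X14 single left out. The summed level of the list over days 1 to 8 ran from 114 to 529 RPM in the 16 libraries labelled double and from 25.9 to 205 RPM in the 16 labelled single.

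**Figure D4:**
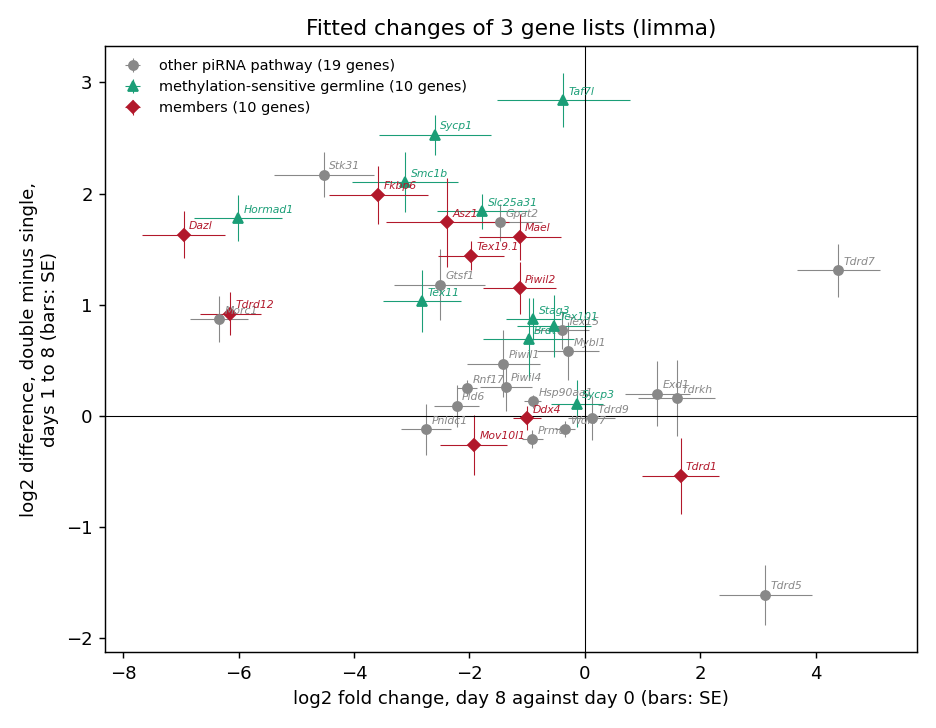
Fitted log2 fold change from day 0 to day 8 (x axis) against the fitted log2 difference of double minus single over days 1 to 8 (y axis), with bars for the SE, for the 10 genes (red), 19 other piRNA pathway genes (grey) and 10 other methylation-sensitive germline genes (green). Dazl and Hormad1 lie at the upper left, lower on day 8 and higher in double, and Tdrd5 lies at the lower right.

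Genes that silence germline promoters were the third list, 14 genes, all tested. On day 4 limma called 5 higher and 0 lower, beside 12.2% and 6.4% of all genes. The de novo DNA methyltransferase Dnmt3b rose by 5.29 on the log2 scale (SE 0.46, adjusted p 1.6e-10), from 53.8 ± 33.2 to 1849 ± 774 RPM (SD, n = 4), and Dnmt3a rose by 3.53 (adjusted p 3.1e-08). The histone methyltransferases Ehmt2 and Ehmt1 rose by 1.88 (adjusted p 8.0e-06) and 1.16 (adjusted p 0.00079), and the Polycomb member L3mbtl2 by 1.5 (adjusted p 0.0002). The call of Ehmt1 ended with quantile normalization (0.96) and without X18 single (0.97), and that of L3mbtl2 without X18 double (0.99). On day 8 Dnmt3b and Ehmt2 were still called higher, Ehmt2 no longer with 75th percentile scaling (0.85), with quantile normalization (0.96) or without X18 double (0.73, adjusted p 0.103). Hells, a chromatin remodeller that aids DNA methylation, fell by 1.38 (adjusted p 2.1e-06). The Polycomb member Pcgf6 fell by 1.02 (adjusted p 5.8e-06), a call that ended without the X14 libraries of day 0 (-0.87) and without X14 single (-0.91). Between the labels 0 of 14 were called by limma at the minimum fold, and 8 had an unadjusted p under 0.05. Dnmt3b had a difference of -0.90 (SE 0.12, adjusted p 3.7e-06) and Dnmt3a one of -0.53 (adjusted p 0.0214), both under that fold, and on day 4 Dnmt3b averaged 1206 RPM in double and 2491 RPM in single.

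The identity of the cells was checked against markers. All 7 markers of embryonic stem cells (Pou5f1, Nanog, Sox2, Zfp42, Esrrb, Tfcp2l1 and Klf4) fell by day 8 in limma, with a summed level of 3960.8 to 5023.6 RPM on day 0 and of 363.8 to 723.3 RPM on day 8. Between the labels 0 of 7 were called by limma, but 4 were higher in double under the minimum fold, Tfcp2l1 by 0.83 (adjusted p 0.00442), Klf4 by 0.80 (adjusted p 0.0316), Esrrb by 0.59 (adjusted p 0.0148) and Zfp42 by 0.42 (adjusted p 0.0192). Tfcp2l1 was called in X18 alone (1.07) and without X14 double or X14 single, and Nanog on days 1 to 4 alone (1.35), and the part of these genes in the gap between the labels was not tested. Of 8 markers of later germ cells, Nanos2, Acrv1, Prm1 and Tnp1 had no read in any of the 36 libraries, Figla had 8 reads and Gdf9 had 4, while Stra8, an early meiotic gene, reached 197 RPM on day 0 and Zp3 reached 55.2 RPM. Of 6 markers of primordial germ cells, Prdm14, Tfap2c and Dppa3 were higher in double by 1.62, 1.61 and 1.32 (adjusted p 1.4e-05, 1.4e-07 and 1.7e-05 in limma), and they are active in naive mESCs too. The call of Dppa3 ended in X18 alone and without X14 double or X14 single (0.99 each), and that of Prdm14 on days 5 to 8 alone (1.2, adjusted p 0.0509). With no minimum fold 3 of the 6 were called higher in double and 1 lower. Dnd1 averaged 14.7 RPM in double and 35.8 RPM in single on day 8, and 22.5 and 18.4 RPM on day 4. Prdm1 averaged 25.4 RPM in double and 5.07 RPM in single on day 4, and 6.95 and 10.4 RPM on day 1. Nanos3, the most particular of them to germ cells, stayed at or below 6.17 RPM. The summed level of these 6 on days 1 to 8 ran from 93.1 to 321 RPM in double and from 28.8 to 197 RPM in single, and its part in the gap between the labels was not tested. Endoderm markers summed to at most 13.3 RPM. The 3 trophoblast markers summed to 17.8 to 48.3 RPM on day 8, with Gata3 up to 44.1 RPM, Cdx2 up to 14.6 RPM and Elf5 up to 2.38 RPM. Gata3 was also higher in double by 2.14 (adjusted p 3.5e-06 in limma). The 4 fibroblast markers summed to 38.1 to 77.3 RPM on day 8, with means of 34.4 RPM for Col1a2 and 12.9 RPM for Col1a1. Thy1 averaged 29.4 RPM on day 5 but 1.19 RPM on day 8, and Col3a1 averaged 0.62 RPM on day 8. Col1a2 rose by 5.79 from day 0 to day 8 (adjusted p 6.4e-12 in limma), and 0 of the 3 tested were called between the labels. The part of these cells in the course of the 10 genes was not tested.

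Genes with a course like that of the 10 were looked for among 9396 others whose mean reached 10 RPM. The likeness is the Pearson r with the mean z-score profile of the 10 genes over 36 libraries, given as a description since the libraries share days. Rbm44 came first with 0.914, then Gm13247 with 0.903, Hsf2bp with 0.90, Dppa2 with 0.891 and Zfp534 with 0.885. With the mean of each day removed, so that only the spread within a day counts, Dppa2 led with 0.921, followed by the X-linked Xlr3c with 0.863, Sord with 0.854, Aqp3 with 0.848 and 2410076I21Rik with 0.841. Dppa2 was in both lists of 5.

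Tex19.2, the neighbour and paralog of Tex19.1, was looked at after its values were seen. It was higher in double in 14 of 16 pairs, lower in 0 and without reads on both sides in 2, with means of 21.7 and 3.86 RPM over days 1 to 8. On day 0 it had 5.55 and 56.95 RPM in the libraries labelled X14 double and X14 single, and 86.3 and 11.95 RPM in X18 double and X18 single. The order in X14 on day 0 was again opposite to that of the later days, as for Dazl and Asz1.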

How the data were processed

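RNA-seq was available for 36 libraries, 4 cultures on each of 9 days. According to the study's methods, single-end reads went through trim_galore, then tophat or hisat2 against mm10 (the submitters' processing notes name TopHat2 2.0.12), and SeqMonk did the counting. The version of the annotation and the use of strand are not given in the sources used here. The sources call the deposited values log CPM or log2 rpm. Since the worth of 1 read differed between genes with their exon length, they were taken as log2 RPKM, as deposited by the authors, with 0.9 read standing for 0. This unit is read from the values. Whole reads were recovered for 100% of values (tolerance 0.02 read) and gave depth and RPM. 0 columns were left without a library, and 58 symbols stand on more than 1 line, none of them among the genes described.

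The 10 genes, the other lists and the tests were chosen with earlier results of these data known. Groups came from the sample titles. Differences were fitted with limma 3.58.1 (lmFit, eBayes with trend, two-sided) under R 4.3.3, taking the log2 values as deposited for the 14612 genes with at least 1 RPM in at least 4 libraries. Days were fitted over all 36 libraries with day as the only factor. Labels and lines were fitted over the 32 libraries of days 1 to 8, with day and the other factor as covariates. Calls needed a Benjamini-Hochberg adjusted p under 0.05 over all genes tested and a log2 difference of at least 1. The scripts were tested on simulated counts. Same-numbered libraries share a line and label by their titles. The mean correlation of their deviations from the day means was 0.13, against -0.04 for other numbers, the lowest was -0.58, and 25 of 36 libraries were closest to their own number. Named genes are the 10 genes, the members of the fixed lists and the 5 most alike by r. Alternatives were another scaling, filter, offset, depth, tool, subset of libraries or replicate block. No authors' fold changes were in the table.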

Additional observations from a re-analysis of the deposited data

Results flagged for a closer look

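Among the 90 sets of 4 libraries examined, 10 genes on each of 9 days, 1 held a library that stood far from the others. On day 1 Tdrd12 had 115.76 RPM in X14 single, from 221 reads, where the other cultures had 204, 203 and 198 RPM. The gap to the nearest of them was 0.954 of the whole range, above Dixon's critical value for 4 samples. Chance alone sets off this mark in about 1 in 20 such sets.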

How the results depend on the processing

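The genes called on day 4 (2720) came to 1728 among genes averaging 10 RPM or more, to 4355 without the X14 libraries of day 0 (chosen after seeing the data), and to between 1656 and 3828 with a replicate left out, the lowest being 1656 without X18 double (replicate 3) and 1808 without X18 single (replicate 4). On day 8 (5114) they came to 3222 under that filter and to between 3835 and 5346 with a replicate left out, and the other piRNA genes called lower (7) to 11 with 75th percentile scaling, 3 under the 10 RPM filter and 6 to 9 with a replicate left out. Between double and single the calls (663) came to 319 under the 10 RPM filter, 439 with log2(RPM + 1), 437 with day 0 included, 408 in X18 alone, 1138 on days 1 to 4, 3298 with no minimum fold, and 384 to 735 with a replicate left out, where 384 is without X14 single (replicate 2). The other piRNA genes called higher (4) came to 2 when thinned to 612740 reads, 2 with day 0 included, 7 with no minimum fold, and 3 with any replicate left out. Between the lines (2) there was 1 call under the 10 RPM filter, 1 in double alone and 1 in single alone, and there were 2 to 9 with a replicate left out, where 9 is without X14 double (replicate 1). Fewer genes were tested under the stricter filter, and the cause of the other shifts was not tested.

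With the replicate block, 2926 genes were called on day 4, 5267 on day 8, 664 between the labels and 2 between the lines, with 8 other piRNA genes lower on day 8 and 4 higher in double. It ended the day 8 call of Tdrkh (adjusted p 0.0526), added those of Asz1, Gpat2 and Slc25a31 on day 8, and on day 4 added Piwil2, Tex19.1 and Morc1, which took the 10 genes from 1 higher and 1 lower to 2 and 2.

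Reversals were seen for Asz1 between the labels (-0.05 on days 5 to 8 alone) and for Piwil4 on day 8 (0.01 when thinned). Of the other differences of the 10 genes between the labels, 156 stayed within 1 SD between the pairs of a day and 10 did not. Of these 10, 9 come from days 1 to 4 or days 5 to 8 alone (Mael 0.97 and 2.26, Fkbp6 1.0 and 2.99, Ddx4 -0.42 and 0.38, Tdrd1 -1.22 and 0.14, Asz1 3.53 early) and 1 from voom (Fkbp6 1.37). On days 1 to 4 alone 4 of the 10 genes were called higher and 1 lower. The 137 values on day 8 stayed within 1 SD between the 4 cultures, an SD that includes the X14 libraries of day 0. Their calls were less stable. Tdrd1 lost its call with 75th percentile scaling (1.38, adjusted p 0.0907) and without the X14 libraries of day 0 (1.19, adjusted p 0.24), among others. Ddx4 lost its call when thinned (-0.84), Mov10l1 when thinned (-1.13, adjusted p 0.0988) and Tex19.1 without X18 single (-1.56, adjusted p 0.0694), all in limma. The 137 values between the lines gained no call. Called values of genes of the other lists lost their call in 59 of 980 cases. The depth limits Asz1, Mov10l1 and Tdrd1, whose highest counts in any library were 25, 23 and 25 reads. It also limits late gaps between the labels where few reads were left in single, such as those of Mael, Fkbp6 and Dazl.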
